A study of Mus musculus with 4 samples.

Results

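The genes described here are 8 members of the tau, microtubule-associated protein (MAP) and tubulin polymerization promoting protein (TPPP) families, *Mapt*, *Map2*, *Map4*, *Map1a*, *Map1b*, *Map6*, *Tppp* and *Tppp3*, of 31557 gene symbols in the count table. They were chosen by name, with earlier results of these data known, and all 8 had rows. Their reads were counted in single nestin-GFP-positive cells sorted from the dentate gyrus of 8 male nestin-GFP mice, in which a transgene under nestin control marks the cells. Of these mice, 4 received the miR-132 antagomir Ant-132, an LNA- and cholesterol-modified oligonucleotide that blocks miR-132, into the cerebral ventricle (2 µl at 0.33 nmol/ml), at 2 months of age with analysis at 3 months, and 4 received a scrambled LNA oligonucleotide, whose dose and mouse age at analysis are not given in the labels used here. Each mouse gave 96 wells of 1 cell, and the 716 wells with 500 to 6000 detected genes were used, 353 from antagomir mice (mice 2, 4, 6 and 8) and 363 from scrambled mice (mice 1, 3, 5 and 7).

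Tau, encoded by *Mapt*, binds along axonal microtubules and stabilises them, and MAP2 does the same mainly in dendrites. MAP4 is the widely expressed relative of both, MAP1A and MAP1B are large filament-binding proteins of mature and growing neurites, and MAP6 makes microtubules resistant to cold. TPPP bundles microtubules and is a known protein of myelinating oligodendrocytes, in which tau also serves process outgrowth and transport of myelin components. TPPP3 is a shorter relative of TPPP.

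The sequence of the microRNA blocked in these mice is shown here because it is what the antagomir binds. miR-212-3p comes from the same cluster on chromosome 11 and shares its seed. Sequences of the microRNAs are RefSeq's (GRCm38.p6), bases 2 to 8, the seed, are in capitals, and the oligo-dT libraries did not measure the mature microRNAs.
miR-132-3p: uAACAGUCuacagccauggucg
miR-212-3p: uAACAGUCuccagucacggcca

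Clustering without these 8 genes, and naming from marker genes, gave 300 oligodendrocyte-like wells, 204 wells resembling radial glia-like (RGL) stem cells or astrocytes, which their markers do not separate, 87 endothelial-like, 83 mural-like, 25 neuroblast-like, 12 fibroblast-like and 5 oligodendrocyte precursor-like wells. *Nes*, the gene whose control region drives the sort marker, had a read in 65.8% of the wells. It had one in 71.3% of oligodendrocyte-like wells, pooling to 31.1 counts per 1000000 summed reads (CPM), and in 49.0% of RGL/astrocyte-like wells, pooling to 57.3 CPM, and wells of each named class had passed the sort. All 11 oligodendrocyte markers were detected in at least 25% of oligodendrocyte-like wells, and summed to a median of 99950 CPM there and 313 CPM in RGL/astrocyte-like cells. One oligodendrocyte-like cluster of 38 wells was led by immediate early and heat shock genes (*Egr2*, *Dnajb1*, *Egr1*, *Fos*), and one RGL/astrocyte-like cluster of 35 wells by genes that include the cell cycle genes *Ccnd2*, *Racgap1* and *Gins2*. Kept wells summed to between 43996495 and 69191485 reads per mouse, with a median of 650777 reads and 2778.5 genes per well. Mice 1 to 4 were sorted on one day and mice 5 to 8 on another. Wells also carry a project label ending in L5 or L6, called a pool here, whose meaning the labels do not give. Each combination of day and pool held 1 mouse of each treatment.

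Levels of most of the 8 genes differed between the cell classes, and tau was highest in oligodendrocyte-like cells. *Mapt* averaged 1344 ± 108 CPM in oligodendrocyte-like cells (SD, n = 8 mice), with a read in 299 of 300 wells. It averaged 524 ± 333 CPM in neuroblast-like cells (n = 5 mice with at least 3 such wells) and 187 ± 95.1 CPM in RGL/astrocyte-like cells, where 49.5% of wells had a read. Over the 8 mice the lowest, median and highest levels were 1186, 1326 and 1523 CPM in oligodendrocyte-like cells and 111, 154 and 388 CPM in RGL/astrocyte-like cells. In endothelial-like cells *Mapt* had 3 reads in all, in 3 of 87 wells, and in mural-like cells 51 reads in 4 of 83. Levels in oligodendrocyte-like cells lay above those of the other 4 classes with no overlap, whereas the neuroblast-like and RGL/astrocyte-like ranges overlapped. Such separation was common among genes averaging at least 20 CPM. In either direction, oligodendrocyte-like cells stood apart from RGL/astrocyte-like cells in 5 of 8 members (21.0% of genes), from endothelial-like cells in 5 of 7 members that averaged 20 CPM (16.6%), from mural-like cells in 3 of 7 (15.5%) and from neuroblast-like cells in 6 of 8 (19.0%). Among these, oligodendrocyte-like cells were lower in *Map2* against RGL/astrocyte-like cells, in *Map4* against endothelial-like cells, and in *Map2* and *Map1b* against neuroblast-like cells.

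**Figure D1:**
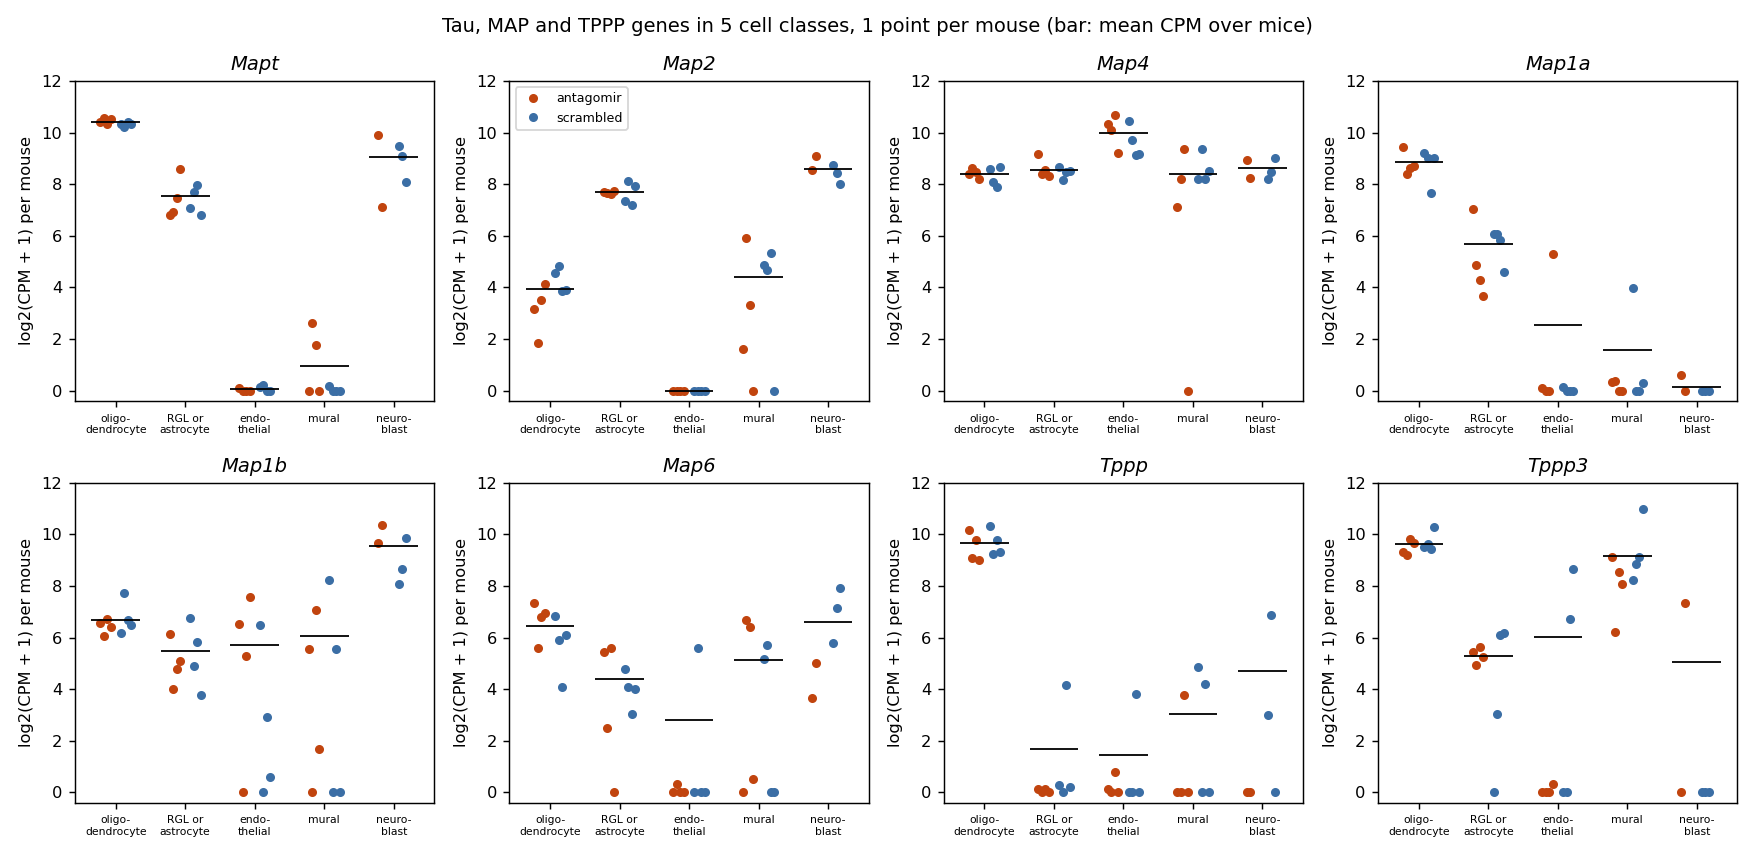
Level of each gene in 5 cell classes, as log2(CPM + 1) of the reads summed per mouse, for antagomir and scrambled mice; each point is 1 mouse and the black bar the mean CPM over mice. *Mapt*, *Map1a* and *Tppp* stand highest in oligodendrocyte-like cells, with *Mapt* at 1344 CPM on average, *Map4* in endothelial-like cells, and *Map2* and *Map1b* in neuroblast-like cells.

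*Tppp* was found almost only in oligodendrocyte-like cells. It averaged 806 ± 285 CPM in oligodendrocyte-like cells (n = 8), with a lowest, median and highest mouse of 508, 762 and 1265 CPM and a read in 294 of 300 wells. In RGL/astrocyte-like cells it had 201 reads in 8 of 204 wells, most of them in 1 scrambled mouse at 16.9 CPM while the other mice had at most 0.214 CPM. Endothelial-like cells held 66 reads in 3 wells and mural-like cells 390 reads in 6 wells, and the oligodendrocyte-like range overlapped none of the other classes. *Tppp3* averaged 797 ± 205 CPM in oligodendrocyte-like cells, with a read in 240 of 300 wells. Mural-like cells also held it, at 574 ± 599 CPM, with 8 mice ranging from 73.7 to 2002 CPM and overlapping oligodendrocyte-like cells. It averaged 37.9 ± 25.5 CPM in RGL/astrocyte-like cells, below the range of either.

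*Map1a* followed the oligodendrocyte pattern at a lower level, with 458 ± 153 CPM in oligodendrocyte-like cells against 50.2 ± 39.0 CPM in RGL/astrocyte-like cells (n = 8 each). Among neuroblast-like cells a single read was found in the 20 wells of 5 mice. Per kilobase of exon, which allows levels of different genes to be compared, *Tppp3* led in oligodendrocyte-like cells at 432 CPM per kb, followed by *Mapt* at 179, *Tppp* at 158, *Map1a* at 37.7, *Map4* at 22.1, *Map6* at 9.54, *Map1b* at 6.44 and *Map2* at 0.874 CPM per kb. *Tppp* and *Mapt* overlapped there within their SDs (55.8 and 14.3 CPM per kb). *Map1a* shares 272 exon bases with *Ppip5k1* and *Map2* 124 with *Gm10558*, both on the opposite strand, so reads of these stretches cannot be assigned to one gene where strand was not used.

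Among the 5 classes compared by mouse, *Map2* and *Map1b* had their highest means in neuroblast-like cells. The *Map2* ranges of neuroblast-like and RGL/astrocyte-like cells overlapped, although it was higher in neuroblast-like cells in 5 of 5 mice. *Map2* averaged 14.4 ± 7.82 CPM in oligodendrocyte-like cells and 206 ± 42.2 CPM in RGL/astrocyte-like cells (n = 8 each), and 388 ± 106 CPM in neuroblast-like cells (n = 5). The 8 mice ran from 2.60 to 27.1 CPM in oligodendrocyte-like cells and from 146 to 281 CPM in RGL/astrocyte-like cells, without overlap. None of 87 endothelial-like wells held a *Map2* read, whereas 72.1% of 204 RGL/astrocyte-like wells did. *Map1b* averaged 741 ± 418 CPM in neuroblast-like cells against 102 ± 45.4 CPM in oligodendrocyte-like and 43.6 ± 32.2 CPM in RGL/astrocyte-like cells, and was higher in neuroblast-like cells than in either in 5 of 5 mice. Within mural-like cells *Map1b* was uneven: the 9 wells led by the smooth muscle genes *Acta2* and *Myh11* pooled to 861 CPM, and the 74 others to 12.7 CPM. Of these 9 wells 44.4% came from scrambled mouse 1 and 33.3% from antagomir mouse 6. *Tppp3* ran the other way, pooling to 62.8 CPM in the 9 wells and 563 CPM in the 74 others. Within RGL/astrocyte-like cells *Map1b* was highest in the cluster with cell cycle genes, with reads in 48.6% of 35 wells. It had reads in 4.31% of 116 and 9.43% of 53 wells in the other clusters. The cluster with cell cycle genes also had the most detected genes, a median of 3636 per well against 2835 and 1154.

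*Map4*, the ubiquitous member, was detected in every class and was highest in endothelial-like cells at 1001 ± 416 CPM (n = 8). In the other classes compared by mouse its means lay between 335 ± 61.2 CPM in oligodendrocyte-like and 392 ± 108 CPM in neuroblast-like cells, closer together than their SDs. *Map6* was low in the classes compared by mouse, with 87.3 ± 47.5 CPM in oligodendrocyte-like, 95.6 ± 94.4 CPM in neuroblast-like and 19.8 ± 17.3 CPM in RGL/astrocyte-like cells, ranges that overlapped. The 12 fibroblast-like wells pooled to 138 CPM of *Map4* and 228 CPM of *Map6*, with *Map6* reads in 3 of them. The 5 oligodendrocyte precursor-like wells, 4 of them from 1 mouse, all had *Mapt* and *Map2* reads, pooling to 281 and 397 CPM, and no *Tppp3* read. The upper limit on detected genes reduced this class. Without that limit 22 wells, from all 8 mice, were named precursor-like, with a median of 10816.5 genes per well. The 5 wells therefore do not stand for the whole class.

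**Figure D2:**
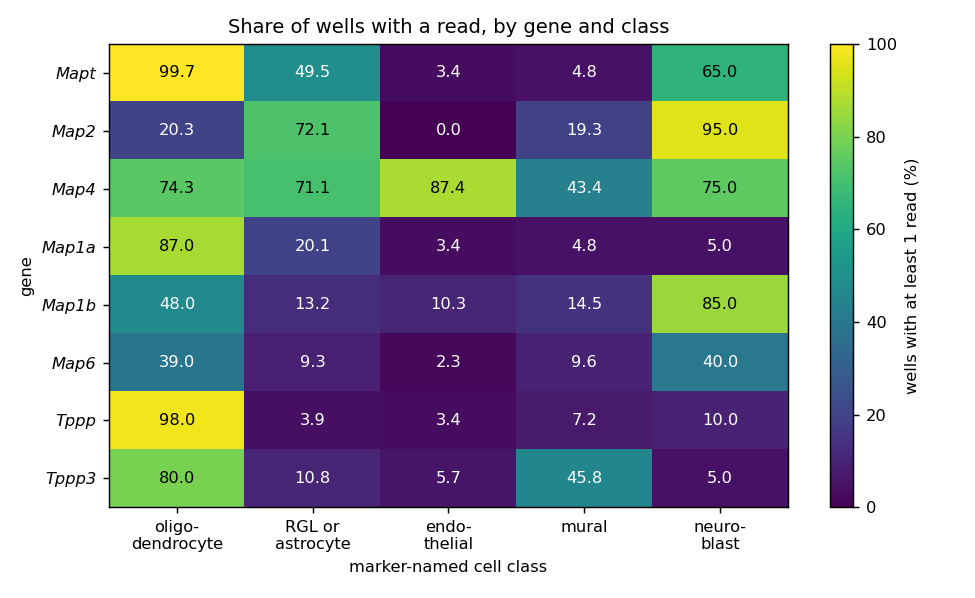
Share of wells with at least 1 read of each gene in 5 cell classes, in percent, over the mice with at least 3 wells of the class. *Mapt* and *Tppp* are found in 99.7% and 98.0% of oligodendrocyte-like wells, and *Map2* in 19 of 20 neuroblast-like wells.

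Shares of wells with a read depend on depth, which differed between classes (a median of 831582 reads per well in oligodendrocyte-like and 550858 in RGL/astrocyte-like cells). After thinning every well to 200000 reads, leaving out 5 and 21 wells, *Mapt* was found in 99.7% of oligodendrocyte-like and 49.2% of RGL/astrocyte-like wells, and *Map2* in 19.0% and 74.9%. Both orders were those of the unthinned reads.

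Class differences were tested with edgeR's quasi-likelihood test on reads summed per mouse and class, with the mouse as a block and Benjamini-Hochberg adjustment over 15524 genes. Between oligodendrocyte-like and RGL/astrocyte-like cells 4 of 8 members were called at an adjusted p under 0.05, against 16.0% of all genes tested. *Mapt* was higher in oligodendrocyte-like cells by 2.99 on the log2 scale (SE 0.81, adjusted p = 0.00901, edgeR, higher in 8 of 8 mice), *Tppp3* by 5.35 (SE 1.63, adjusted p = 0.0209, 8 of 8 mice) and *Tppp* with adjusted p = 3.25e-05. *Map2* was lower by 3.76 on that scale, at a log2 difference of -3.76 (SE 1.03, adjusted p = 0.0121, lower in 8 of 8 mice). The fitted *Tppp* difference rests on nearly no reads in RGL/astrocyte-like cells and is not given as a fold. *Map1a*, with a difference of 3.31 (interval 0.76 to 5.86), missed the threshold at adjusted p = 0.0699 although its level was higher in 8 of 8 mice; it passed without a filter on low counts (adjusted p = 0.0212) and without antagomir mouse 8 (adjusted p = 0.0199). *Map1b* (2.22, adjusted p = 0.293), *Map6* (2.92, adjusted p = 0.287) and *Map4* (0.02, interval -1.21 to 1.26) were not called. The *Tppp3* call is lost without scrambled mouse 3 (adjusted p = 0.0545), and the *Mapt* call when wells over 6000 genes are kept (adjusted p = 0.0732). Fitted on these 2 classes alone, an alternative chosen after seeing the data, 7 of 8 members were called, beside 20.8% of 16332 genes (edgeR). *Map1a* (3.75, adjusted p = 6.19e-05), *Map1b* (1.74, adjusted p = 0.0133) and *Map6* (2.65, adjusted p = 0.0466) then passed as higher in oligodendrocyte-like cells, and *Map4* did not (0.09, adjusted p = 0.733).

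Over the 10 pairs of classes 32 member differences were called, of which 20 were called under all 15 alternatives. Endothelial-like and mural-like cells had almost no tau, and *Mapt* was higher in each of the 3 other classes than in either of them. Against endothelial-like cells, oligodendrocyte-like cells were higher in 6 members, *Mapt*, *Tppp*, *Map1a*, *Map2*, *Map6* and *Tppp3* (23.3% of genes called), and RGL/astrocyte-like cells in 4, *Mapt*, *Map2*, *Map1a* and *Map6* (25.9%). Against mural-like cells, the oligodendrocyte class was higher in *Mapt*, *Tppp* and *Map1a* (20.6%) and the RGL/astrocyte class in *Mapt*, *Map2* and *Map1a* (21.3%). Against neuroblast-like cells, oligodendrocyte-like cells were higher in *Tppp*, *Tppp3* and *Map1a* and lower in *Map2* (14.1%), while *Mapt* missed the threshold at adjusted p = 0.0567 (edgeR), and RGL/astrocyte-like cells were higher in *Map1a* only (13.3%). Endothelial-like cells were lower than mural-like ones in *Map2* and *Tppp3* (9.21%) and lower than neuroblast-like ones in *Mapt*, *Map2* and *Map6* (14.8%), and mural-like cells lower than neuroblast-like ones in *Mapt* and *Map2* (13.0%). *Map4* and *Map1b* were called in none of the 10 pairs, although *Map4* was higher in endothelial-like than in oligodendrocyte-like cells in 8 of 8 mice. Some calls were lost without 1 mouse (edgeR, highest adjusted p over the alternatives in each case). In oligodendrocyte-like against neuroblast-like cells *Tppp3* was lost without mouse 1, 3 or 6 (0.0871), *Tppp* without mouse 1, 5, 6 or 8 (0.0990) and *Map2* without any 1 mouse other than mouse 7 (0.108). *Map6* was lost without any 1 mouse other than mouse 3 against endothelial-like cells, both in RGL/astrocyte-like (0.435) and in neuroblast-like cells (0.270). *Tppp3* in endothelial-like against mural-like cells was lost without mouse 1, 2, 3, 4 or 6 (0.0913), and *Map2* in mural-like against neuroblast-like cells without mouse 1, 2, 3, 6 or 8 (0.151). Several of these calls were also lost with all mice kept. With no upper limit on genes, both *Map2* calls, both *Map6* calls and the *Tppp* call were lost. Both *Map2* calls were also lost without a filter on low counts and with only the 2 classes compared. The *Map6* call between endothelial-like and neuroblast-like cells was also lost with only those 2 classes. Other losses were those of *Map1a* between RGL/astrocyte-like and neuroblast-like cells with marker-gene classes (0.0938) or with only those 2 classes (0.0666), of *Map6* between oligodendrocyte-like and endothelial-like cells with no upper limit on genes (0.0965), and of *Map2* between endothelial-like and mural-like cells with only those 2 classes (0.110). Simulated 4-fold differences between classes were called in none of 68 genes, and 64-fold ones in 36.4%, so a difference that was not called is not shown to be absent.

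Other genes of the microtubule system separated the same 2 classes only in part, and the counts below stand beside the 16.0% of all genes called between them. Of 13 tubulin genes tested, 2 were higher and 3 lower in oligodendrocyte-like cells: *Tubb4a* averaged 16198 ± 2390 CPM there against 84.1 ± 72.5 CPM in RGL/astrocyte-like cells, while *Tubb2b* averaged 3.59 ± 3.08 against 277 ± 96.4 CPM and *Tubb2a* 15.2 ± 9.30 against 451 ± 82.2 CPM (n = 8 each). Their median log2 difference was -0.70, beside -0.19 over all genes tested. Of 21 other stabilising or plus-end proteins 2 were higher and 4 lower, among them *Map6d1*, a relative of *Map6*, at 460 ± 75.6 against 1.73 ± 4.76 CPM, *Map7*, a kinesin cofactor, at 321 ± 24.9 against 2.64 ± 5.63 CPM, and the spindle factor *Tpx2*, which had no reads in oligodendrocyte-like cells and 29.5 ± 38.3 CPM in RGL/astrocyte-like cells. Of 12 destabilising and severing proteins 3 were higher and 1 lower, with *Stmn4*, a stathmin that binds free tubulin, at 418 ± 47.9 against 2.69 ± 4.82 CPM, the severing protein *Fign* at 11.3 ± 4.45 against 0.055 ± 0.096 CPM, and the katanin-like *Katnal2* at 0.875 ± 2.43 against 20.9 ± 22.9 CPM. Of 11 tubulin modifying enzymes 1 was higher, *Ttll7*, a polyglutamylase, at 518 ± 68.1 against 6.65 ± 3.96 CPM, and 1 lower, the deglutamylase *Agbl4*, at 0.019 ± 0.053 against 4.21 ± 7.34 CPM. None of 17 tau kinases or 16 motor subunits was called, although 15 of the 16 motor subunits had positive differences, with a median of 1.40.

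Across the 37 sums of 1 class in 1 mouse, the genes whose log2(CPM + 1) ran closest to *Mapt* were *Ncam1*, a cell adhesion gene (Pearson r = 0.97), *Kif21a* (0.96) and *Trim2* (0.96), of 7702 genes compared. *Tppp* ran closest to *Cntn2* (0.92), *Plxnb3* (0.90) and the myelin gene *Mog* (0.90), and *Map1a* to *Gpr37* (0.94), *Olig1* (0.94) and *Gsn* (0.94). *Map2* ran closest to *Mir99ahg* (0.94), *Csdc2* (0.89) and *Enah* (0.89), and *Map1b* to *Gle1* (0.86), *Cttnbp2* (0.77) and *Stau1* (0.76). The closest genes to *Tppp3* were *Pld1* (0.82), *Pdlim1* (0.80) and *Plekhg3* (0.78), to *Map4* *Dync1h1*, *Prelid1* and *Aplp2* (0.76, 0.76 and 0.75), and to *Map6* *Slc25a27*, *Alg11* and *Clip3* (0.75, 0.74 and 0.73). These sums share mice, libraries and depth, and the values are descriptions.

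The comparison of antagomir with scrambled mice asks whether blocking miR-132 changed the tau and MAP genes, and none of them passed the test. In oligodendrocyte-like cells *Mapt* stood at 1358, 1523, 1293 and 1463 CPM in the 4 antagomir mice, against 1279, 1186, 1364 and 1288 CPM in the 4 scrambled mice. These ranges overlapped, and the log2 difference was 0.12 with a 95% interval of -0.20 to 0.43 (edgeR, adjusted p = 1.00). *Map1a* had 690, 336, 394 and 420 CPM in antagomir mice and 593, 513, 202 and 520 CPM in scrambled mice, a log2 difference of 0.00 with an interval of -0.75 to 0.76. *Tppp* averaged 766 ± 300 CPM in antagomir and 846 ± 308 CPM in scrambled mice, and *Tppp3* 733 ± 153 and 862 ± 251 CPM (SD, n = 4 each), with log2 differences of -0.17 and -0.25. *Map1b* averaged 86.4 ± 15.9 CPM in antagomir and 118 ± 62.6 CPM in scrambled mice (log2 -0.44, interval -1.18 to 0.30), and *Map4* 345 ± 38.7 and 325 ± 83.6 CPM (log2 0.06, interval -0.41 to 0.53). *Map6* had the highest positive difference among the members, at 111 ± 46.7 CPM in antagomir and 63.9 ± 40.3 CPM in scrambled mice (log2 0.77, interval -0.43 to 1.98), and *Map2* the lowest, at 9.41 ± 5.77 and 19.3 ± 6.62 CPM (log2 -1.05, interval -2.67 to 0.56).

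**Figure D3:**
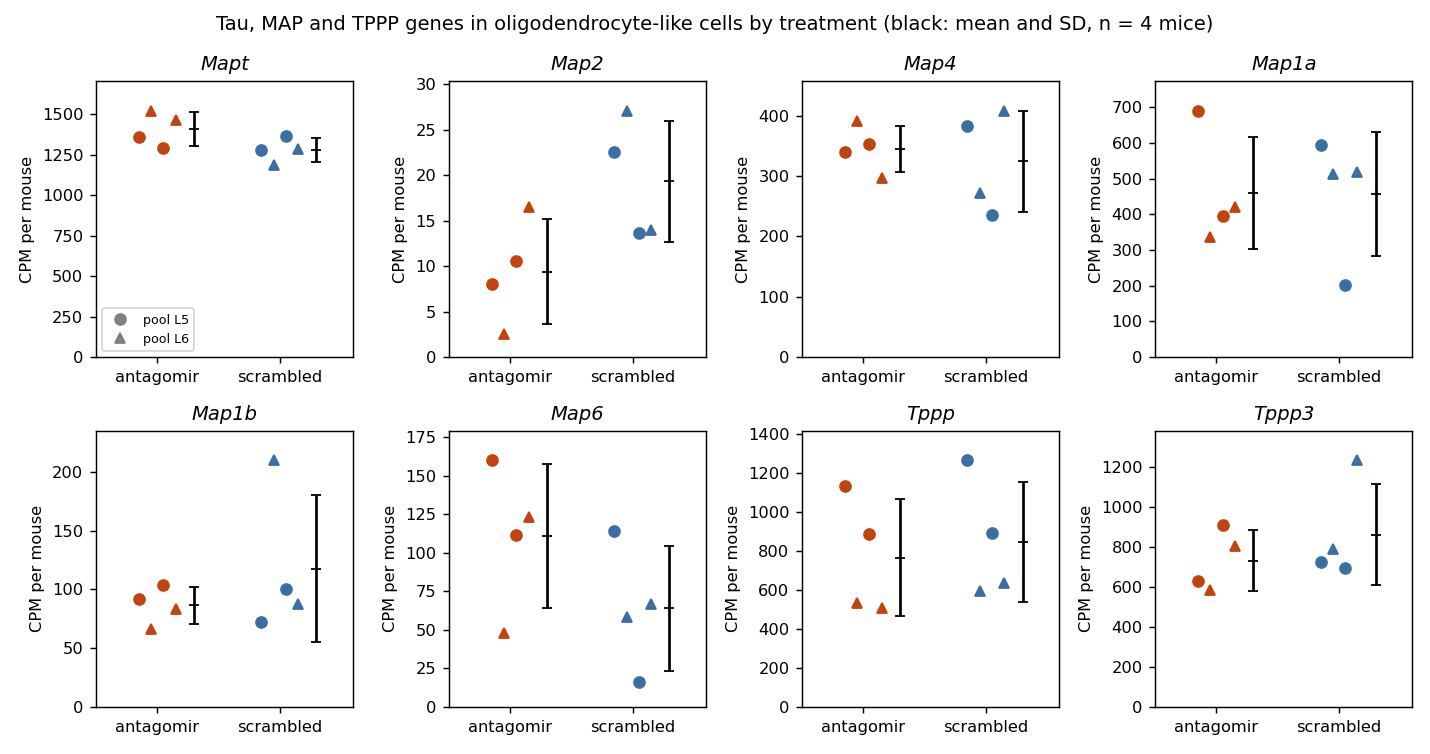
CPM of each gene in oligodendrocyte-like cells of antagomir mice (left) and scrambled mice (right); each point is 1 mouse, circles mark pool L5 and triangles pool L6, and the black mark gives the mean and SD of 4 mice. The treatments overlap for every gene, and *Tppp* separates by pool.

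The pools were compared within oligodendrocyte-like cells as a check on the treatment values. *Tppp* reached 1134 and 888 CPM in antagomir mice and 1265 and 890 CPM in scrambled mice of pool L5, and 535 and 508 CPM in antagomir mice and 596 and 636 CPM in scrambled mice of pool L6. The 4 mice of pool L5 lay above the 4 of pool L6, a separation that 1 of 7 members averaging at least 20 CPM showed, close to the 12.8% of genes that did. Within each of the 2 larger oligodendrocyte-like clusters the pools stayed apart, at 868 to 1231 against 526 to 716 CPM and at 883 to 1323 against 411 to 583 CPM for L5 against L6. In the third, only 1 mouse of pool L6 had 3 wells, and its 967 CPM lay within the 876 to 1379 CPM of pool L5. *Tppp* was singled out after its values were seen, and no member separated by sort day (2.36% of genes). Within pool L5 the antagomir log2 difference of *Tppp* was -0.14 and within pool L6 -0.23.

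In RGL/astrocyte-like cells *Mapt* averaged 199 ± 129 CPM in antagomir and 174 ± 63.9 CPM in scrambled mice (log2 0.18, interval -0.82 to 1.18), with 1 antagomir mouse at 388 CPM and the other 3 between 112 and 174 CPM. Its difference was -0.52 within pool L5 and 0.75 within pool L6. *Map2* averaged 204 ± 7.66 and 208 ± 63.9 CPM (log2 -0.04, interval -0.66 to 0.58). The differences of *Map4* (0.15), *Map1a* (-0.21), *Map1b* (-0.54), *Map6* (0.48) and *Tppp3* (0.04) also had intervals that include 0, and those of *Map6* and *Tppp3* ran from -2.77 to 3.73 and from -2.85 to 2.94. *Tppp* had too few reads there to be tested. Over all cells *Mapt* averaged 732 ± 201 CPM in antagomir and 733 ± 102 CPM in scrambled mice (log2 -0.02, interval -0.57 to 0.54), *Map6* 76.4 ± 34.0 and 43.9 ± 17.1 CPM (log2 0.78, interval -0.16 to 1.73) and *Tppp3* 391 ± 136 and 550 ± 239 CPM (log2 -0.51, interval -1.33 to 0.30). The all-cell differences were 0.13 for *Map2*, 0.12 for *Map4*, -0.12 for *Map1a*, -0.43 for *Map1b* and -0.29 for *Tppp*. Oligodendrocyte-like wells made up 39.9 ± 10.8% of the wells of antagomir mice and 44.2 ± 7.49% of those of scrambled mice; the part of this share in the all-cell values was not tested.

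**Figure D4:**
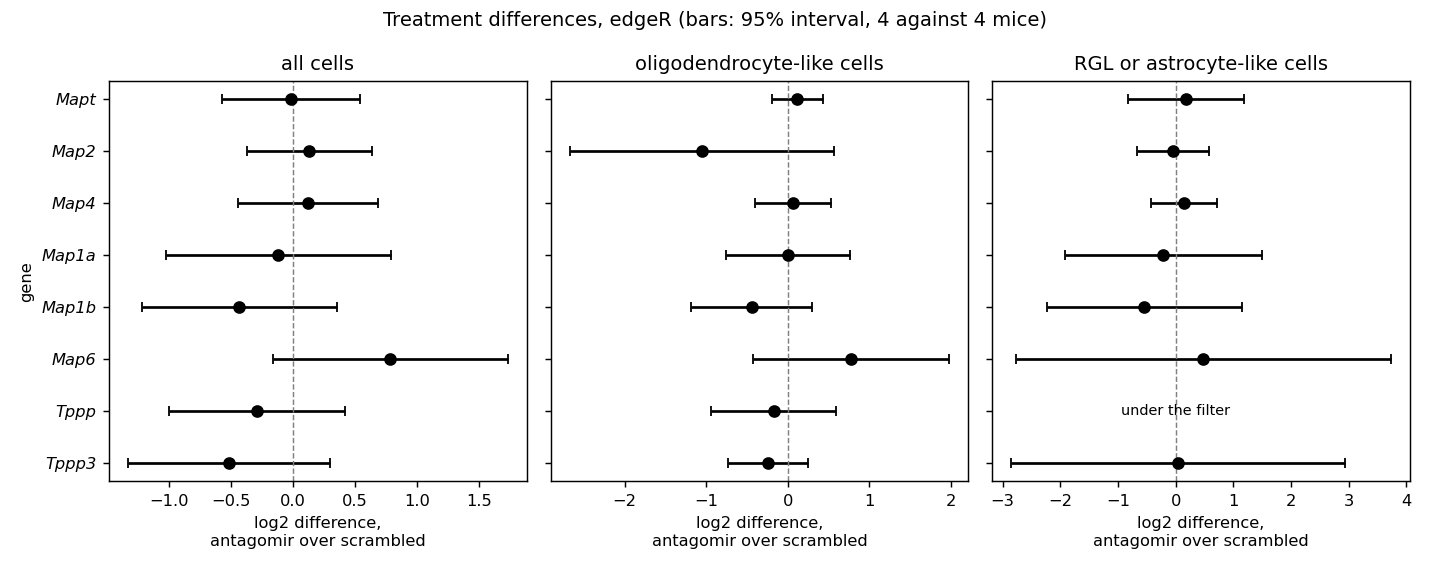
Antagomir over scrambled log2 difference of each gene in all cells, oligodendrocyte-like cells and RGL/astrocyte-like cells, with 95% intervals computed from edgeR's test (4 against 4 mice). The 3 panels have their own scales. Every interval includes 0, and *Tppp* was not tested in RGL/astrocyte-like cells.

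None of the members was called in any of the 3 treatment comparisons, and by edgeR none of the 15447, 10774 and 11361 genes tested was (0.00% in each), with 280, 210 and 177 genes at an unadjusted p under 0.05. DESeq2 called 10, 13 and 8 genes, no member among them. No member had non-overlapping treatment groups in any comparison, where 1.38%, 1.57% and 2.37% of genes averaging at least 20 CPM did. Simulated 2-fold changes were called in 7% of changed genes in all cells, 1% in oligodendrocyte-like and 0% in RGL/astrocyte-like cells, and 4-fold ones in 63%, 44% and 9%. The lack of a call alone therefore does not exclude changes of that size. The intervals bound the *Mapt* difference in oligodendrocyte-like cells more tightly than that of any other member. The treatment difference of oligodendrocyte-like minus that of RGL/astrocyte-like cells was not called for any member either (0.00% of 16332 genes), at 0.06 for *Mapt* (interval -0.98 to 1.09) and between -1.71 for *Tppp3* and 1.38 for *Map6* over the 7 members other than *Tppp*. *Tppp* had 2 reads in the RGL/astrocyte-like wells of antagomir mice, so its fitted difference is not given.

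In 6 lists of microtubule genes and tau kinases, no gene passed the threshold in any treatment comparison. Over all cells the 2 most abundant genes of each list, *Tubb4a* and *Tuba1a*, *Clasp2* and *Map6d1*, *Stmn1* and *Stmn4*, *Cdk5* and *Prkacb*, *Kif1b* and *Kif1a*, and *Sirt2* and *Ttll7*, had log2 differences between -0.37 and 0.09. *Tubb4a* averaged 7597 ± 1625 CPM in antagomir and 8545 ± 1254 CPM in scrambled mice, and the tau kinase *Cdk5* 156 ± 43.8 and 150 ± 23.7 CPM (n = 4 each). The tubulin deacetylase *Sirt2* averaged 602 ± 111 CPM in antagomir and 767 ± 134 CPM in scrambled mice (log2 -0.37, interval -0.86 to 0.11). In RGL/astrocyte-like cells *Map6d1* and *Stmn4* were not tested, and *Dclk1* and *Stmn3* were the next tested genes by all-cell CPM. There *Stmn3* differed by 1.18 (interval -0.40 to 2.76) and *Dclk1* by 0.05 (interval -0.95 to 1.06).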

How the data were processed

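Per the labels, RNA of each sorted cell was amplified from oligo-dT primers (Smart-seq2, without molecular identifiers) and sequenced from Nextera XT libraries. The authors deposited raw read counts of 31557 gene symbols in 768 wells. Build mm10, STAR 2.5.2, featureCounts 1.5.1 of Subread, Seurat 2.3.1 and FastQC are listed, without roles, per the submitters' processing notes. Neither the annotation release nor whether reads were counted by strand is given in those sources. A second deposited table gives the mouse, treatment, sort day and project label (here the pool) of each well, and the mouse, not the GEO sample, was the replicate.

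Wells with 500 to 6000 detected genes were clustered (scanpy 1.11.5, 2000 variable genes, 20 components, 15 neighbours, Leiden resolution 1), with the 8 genes and all microtubule lists held out, and clusters named from markers. Doublets were not removed by a caller. Classes rebuilt by clustering on marker genes alone gave 97.8% of wells the same name. Counts were summed per mouse and class (at least 3 wells, in at least 4 mice), filtered with filterByExpr, scaled by TMM and tested with edgeR 4.0.16 (R 4.3.3, limma 3.58.1), with DESeq2 1.42.0 as an alternative. Fibroblast-like and precursor-like wells were too few within these limits on detected genes and are described pooled. CPM are counts per 1000000 summed reads. Intervals beside log2 differences are edgeR's and reflect the spread between mice, while floors cover counting error only.

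Every one of the 8 genes is named. From each list, the rule named the 3 called genes with the largest class difference. For treatment, where no gene was called, it named the 2 tested genes highest in CPM over all cells. Likeness was ranked among genes averaging at least 20 CPM. The members and lists were chosen with earlier results of these data known. On simulated counts with the real dispersions, unchanged genes had p under 0.05 in 2.39% to 4.33% of cases. The simulated class folds were widened to 16 and 64 after 4-fold ones had not been recovered. One gene list and the search for seed matches are not reported here.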

Additional observations from a re-analysis of the deposited data

Results flagged for a closer look

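Dixon's test for a value far from the rest of its group was applied to 72 sets of mice, and 13 were singled out, where chance gives about 5% of sets; many hold values near 0. Over all cells *Mapt* was 581 CPM in scrambled mouse 1, against 768 to 803 CPM in the other scrambled mice. In RGL/astrocyte-like cells *Map1a* was 130 CPM in antagomir mouse 2, against 11.6 to 28.2 CPM, and *Tppp* 16.9 CPM in scrambled mouse 5, against at most 0.214 CPM. In endothelial-like cells *Map1a* was 38.6 CPM in mouse 8, *Map6* 47.6 CPM in mouse 3, *Tppp* 13.0 CPM in mouse 5 and *Tppp3* 402 CPM in mouse 7, against at most 0.089, 0.253, 0.720 and 105 CPM in the other 7 mice. In mural-like cells *Map1a* was 14.9 CPM and *Map1b* 301 CPM in mouse 1, against at most 0.307 and 135 CPM, and *Tppp3* was 2002 CPM in mouse 7, against at most 563 CPM. In neuroblast-like cells *Map1a* was 0.508 CPM in mouse 6, *Tppp* 117 CPM in mouse 3 and *Tppp3* 162 CPM in mouse 8, against 0, at most 6.96 and 0 CPM in the other 4 mice.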

How the results depend on the processing

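The number of members called for treatment and for the difference of treatment differences was 0 under each alternative run. The 32 class calls ranged from 25 to 32 with 1 mouse left out and were 45 with DESeq2, 34 without a filter on low counts and 26 with no upper limit on genes. The median difference of all genes between oligodendrocyte-like and neuroblast-like cells was 1.71 with TMM and 1.43 with RLE scaling (log2). For each gene the mean of the treatment group was subtracted from each mouse's log2 level. Across genes, these deviations correlated by -0.0057 to 0.15 between the mice of one sort day and pool. The main fits did not treat these mice as paired, although 12.8% of genes averaging at least 20 CPM separated by pool in oligodendrocyte-like cells. The replicate block called 0 members and turned *Mapt* to -0.012 and *Map6* to -0.82 in RGL/astrocyte-like cells. Values there also turned with marker-gene classes (*Map2* 0.0090, *Tppp3* -0.12), without the cluster of few detected genes (*Map2* 0.037, *Map6* -0.030) and without that of many (*Mapt* -0.58, *Map1b* 1.07, *Tppp3* -0.85), the last 2 chosen after seeing the data. In oligodendrocyte-like cells *Map1a* was -0.00042 without a filter, -0.0054 with no upper limit and -0.030 with marker-gene classes, and *Map4* -0.10 and -0.048 in the last 2. *Map4* in oligodendrocyte-like minus RGL/astrocyte-like cells was -0.18 with RLE and with DESeq2, -0.13 with marker-gene classes and -0.020 with no upper limit. The cause was not tested.

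With 1 mouse left out, log2 treatment differences changed sign within these ranges. Over all cells they were -0.26 to 0.091 (*Mapt*), -0.44 to 0.092 (*Map1a*) and -0.0018 to 0.30 (*Map4*). In oligodendrocyte-like cells they were -0.44 to 0.13 (*Tppp*), -0.28 to 0.20 (*Map1a*) and -0.052 to 0.19 (*Map4*). In RGL/astrocyte-like cells they were -0.16 to 0.11 (*Map2*), -0.41 to 0.43 (*Mapt*), -1.05 to 0.11 (*Map1b*), -1.46 to 0.10 (*Map1a*), -0.094 to 0.89 (*Map6*), -0.37 to 0.59 (*Tppp3*) and -0.060 to 0.22 (*Map4*). For the difference between the 2 classes' treatment differences they were -0.18 to 0.41 (*Mapt*), -0.73 to 0.46 (*Map1b*) and -0.25 to 0.094 (*Map4*), and for *Map4* between the classes -0.057 to 0.18.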
